A study of Citrus sinensis with 30 samples.

Results

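UDP-sugar glycosyltransferases were examined in the juice sacs of 2 sweet orange (Citrus sinensis) varieties during storage. The members were the genes of the deposited expression table whose description held the words UDP-glycosyltransferase, UDP-glucosyltransferase, 3-O-glucosyltransferase, 7-O-glucosyltransferase or rhamnosyltransferase, together with Cs6g11490, an anthocyanidin 3-O-glucosyltransferase 2-like gene that the words also found. This gave 58 of 24179 genes. By description, 44 were numbered UDP-glycosyltransferases (UGTs), 4 were anthocyanidin 3-O-glucosyltransferases, 7 were other 3-O-glucosyltransferases, 2 were rhamnosyltransferases and 1 was a limonoid glucosyltransferase. No gene was found by the words 7-O-glucosyltransferase. The search itself used no measured value, but its words were chosen with earlier results of these data known.

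The varieties were ‘Tarocco’ blood orange (TBO), which accumulates anthocyanins in its flesh, and ‘Bingtangcheng’ sweet orange (BTSO), a low-acid type. Mature fruit of both were bought from an experimental station, wrapped singly in plastic and held in a cold chamber. Juice sacs, the juice-filled hairs that make up the flesh, were sampled on 5 days after storage began (DAS: 0, 15, 30, 60, then 90). Each variety and day had 3 biological replicates, giving 30 poly(A) RNA libraries in 10 groups. The sampled fruit were several per group, and the effect of a variety and that of where and how its fruit grew cannot be told apart. All groups after 0 DAS were cold-stored, so cold and time in storage cannot be told apart either.

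UGTs move a sugar from a UDP-sugar, most often UDP-glucose, onto a small acceptor molecule, which makes it more soluble and often allows its storage in the vacuole. In the pigment pathway, an anthocyanidin 3-O-glucosyltransferase adds the glucose that turns an unstable anthocyanidin into a stable anthocyanin, and rhamnosyltransferases lengthen the sugar chain of flavonoids. In citrus fruit the limonoid glucosyltransferase converts bitter limonoids into tasteless glucosides, and relatives in other plants act on hormones such as cytokinin, auxin and salicylate. The numbers in UGT names give sequence families and do not state the acceptor used in orange.

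Levels are given as FPKM, fragments scaled to transcript length and library size, in the 3 libraries of a group in replicate order. The estimated counts deposited beside them summed to between 51894138 and 75833189 per library. Between replicates the correlation over genes, as log2(FPKM + 1), ran from 0.969 to 0.985. In bulk juice sacs, fewer cells of a type and less RNA per cell cannot be told apart. No gene set that defines juice sacs alone was used. Of markers of other tissues, 10 photosynthesis genes summed to 63.5 to 91.6 FPKM in TBO and 32.6 to 70.3 in BTSO, with the lowest values in BTSO at 30 and 60 DAS. The most abundant of the 10, Cs4g07650, averaged 29.5 FPKM and was higher in TBO by 1.41 in log2(FPKM + 1) on the average over the days. The median difference of the 10 was only 0.03, beside 0.08 over all genes tested between the varieties. The 8 laccase and xylem proteinase genes summed to 3.62 to 22.3 in TBO and 5.24 to 67.9 in BTSO, nearly all from 1 laccase-7-like gene (Cs6g07400), and 5 of the 8 stayed below 1 in every library. The 14 cuticle genes summed to 27.2 to 82.6 in TBO and 29.0 to 73.9 in BTSO, and 8 of them stayed below 1. The 13 seed genes summed to 226 to 938 in TBO and 296 to 1170 in BTSO, mostly from late embryogenesis abundant proteins. Of the 4 oleosin genes, 3 averaged below 1, while the other averaged 17.6 and was above 0 in every library. The part of these tissues in the results was not tested.

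Most of the glycosyltransferase RNA came from 3 genes. Cs9g16640, a UGT 76C2-like gene, averaged 1095 FPKM over the 30 libraries, Cs8g04930, a UGT 84B2-like gene, 402 and the limonoid glucosyltransferase Cs8g04920 271. Together they held between 77.1% and 92.8% of the summed FPKM of all members in a library. A further 9 members averaged 10 to 100 FPKM and 17 averaged 1 to 10, while 29 averaged below 1 and 16 of these below 0.1. The next most abundant were Cs6g11490 with a mean of 59.7 and Cs2g18250, a UGT 74G1 gene, with 36.4. The limit for testing, 3 or more libraries with an FPKM of 1 or more, was reached by 31 of the 58 members, and 24 members stayed below 1 in every library. All 4 anthocyanidin 3-O-glucosyltransferases were tested, against 23 of the 44 numbered UGTs, 2 of the 7 other 3-O-glucosyltransferases, 1 of the 2 rhamnosyltransferases and the limonoid glucosyltransferase. By UGT family, 4 of 5 members of family 73, 3 of 3 of family 87 and 2 of 3 of family 89 were tested, but only 3 of 9 of family 74, 3 of 7 of family 76 and 2 of 9 of family 83.

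The summed level was lower at the end of storage than at its start in TBO. It averaged 2234 ± 50.0 FPKM (SD, n = 3) at 0 DAS, 2417 ± 34.9 at 15, 1963 ± 110.4 at 30, 1728 ± 37.4 at 60 and 1363 ± 8.49 at 90 DAS. In BTSO it averaged 1980 ± 109.6, 2411 ± 315, 2345 ± 46.8, 2390 ± 372 and 1923 ± 54.5 on the same days. At 90 DAS the TBO libraries (1354 to 1370) lay below those of BTSO (1861 to 1964), and at 0 DAS they lay higher (2182 to 2282 against 1904 to 2105). The lower sum in TBO went with Cs9g16640, whose share of the sum went from a mean of 65.3% to 26.0%, against 53.0% to 43.6% in BTSO. Without this gene the sum was 773 ± 56.6 at 0 DAS and 1009 ± 44.4 at 90 DAS in TBO, and 929.6 ± 29.9 and 1083 ± 55.8 in BTSO.

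**Figure D1:**
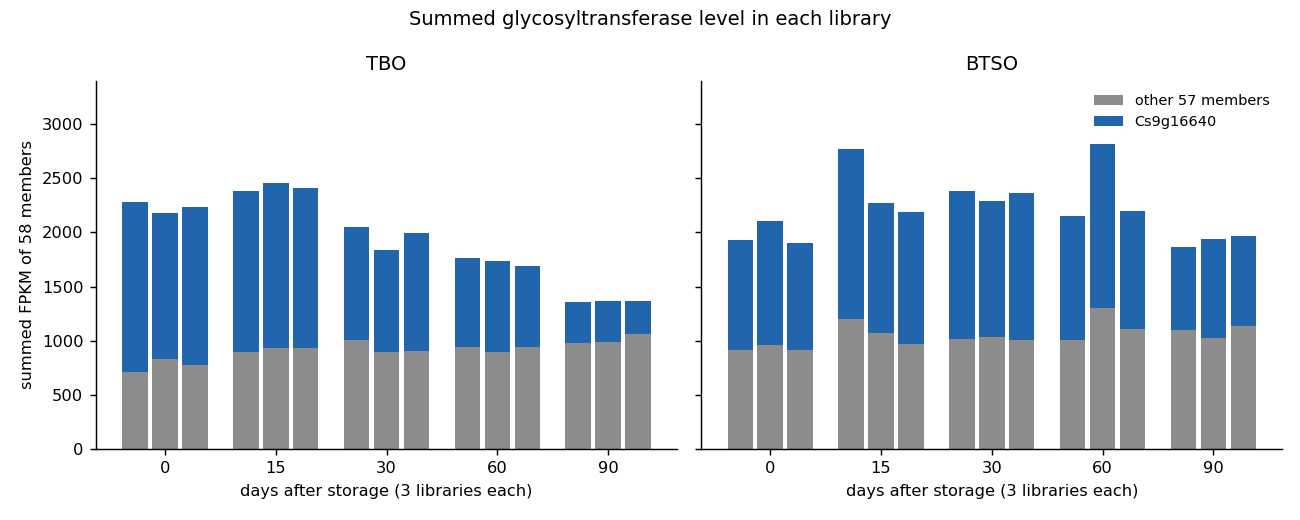
Summed FPKM of the 58 members in each of the 30 libraries (vertical axis, linear from 0), 3 bars for each storage day in TBO (left) and BTSO (right), with the blue part of each bar for Cs9g16640 and the grey part for the other 57 members. The blue part went in TBO from a mean share of 65.3% at 0 DAS to 26.0% at 90 DAS, while the grey part stayed between 714 and 1060 in every TBO library.

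Between the varieties, the members differed in both directions, and more were lower than higher in TBO on 4 of the 5 days, with equal numbers at 30 DAS. Differences were tested with limma on log2(FPKM + 1) over all 16578 genes that reached the limit, and a gene was called where the Benjamini-Hochberg adjusted p was under 0.05 and the log2 difference over 1. At 0 DAS 1 member was called higher and 6 lower in TBO (7 of 31), when 7.80% of all genes tested were called, 3.85% higher and 3.94% lower. At 15 DAS 2 members were higher and 3 lower, against 8.87% of all genes (5.16% higher and 3.72% lower). The numbers at 30 DAS were 5 and 5, against 10.7% of all genes (5.50% and 5.25%). The next day of sampling, 60 DAS, gave 4 and 5, against 11.3% (6.65% and 4.69%), and 90 DAS gave 2 and 6, against 10.8% (5.91% and 4.89%). The median log2 difference of the tested members was -0.19 at 0 DAS, -0.01 at 15, -0.25 at 30, -0.18 at 60 and -0.19 at 90 DAS, beside 0.06, 0.13, 0.06, 0.03 and 0.08 over all genes tested. For the difference averaged over the days, 2 members were called higher and 4 lower (8.04% of all genes, 4.18% higher and 3.86% lower), and the medians were -0.23 and 0.08. Among these members, Cs9g18780 and Cs8g20760 reached the limit for testing in 1 variety only, and leaving them out of the counts gave 1 higher with 5 lower (0 DAS), 4 higher with 5 lower (30 DAS), and 3 higher with 5 lower (60 DAS). Scaling to the upper quartile moved the median of all genes by -0.105 on the average over the days and left 2 members higher and 4 lower. With it 548 of all genes tested were called higher and 805 lower (8.16%). At 90 DAS it gave 1 member higher and 7 lower, with 747 of all genes tested higher and 988 lower (10.5%).

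Libraries of the varieties did not overlap for 22 members at 0 DAS, of which 7 lay above and 15 below in TBO (33.4% of all genes tested lay above and 22.1% below). The numbers above and below were 7 and 14 at 15 DAS (39.6% and 21.3% of all genes), then 6 and 12 at 30 DAS (32.6% and 24.4%), 9 above and 13 below at 60 DAS (31.3% and 26.3%), then 6 and 10 at 90 DAS (36.2% and 23.6%). Separation in the same direction on each of the 5 days was seen for 3 members with TBO above (14.9% of all genes) and 4 with TBO below (8.79%). Called the same way on all 5 days were 1 member that was higher in TBO (1.35% of all genes) and 3 that were lower (1.57%). Over all comparisons of varieties and days, 18 of the 31 tested members were called at least once (58.1%, beside 32.1% of all genes tested) and 13 never. Cs9g18780 was among the 3 with TBO above on each day. It and Cs8g20760, which each reached the limit for testing in 1 variety only, were also among the 18 and in the daily counts. For these genes the counts are a description. The 4 members called on every day were the anthocyanidin 5,3-O-glucosyltransferase-like locus Cs9g18820/Cs9g18830, which was higher, and orange1.1t04895, Cs7g32210 and Cs8g20750, which were lower.

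**Figure D2:**
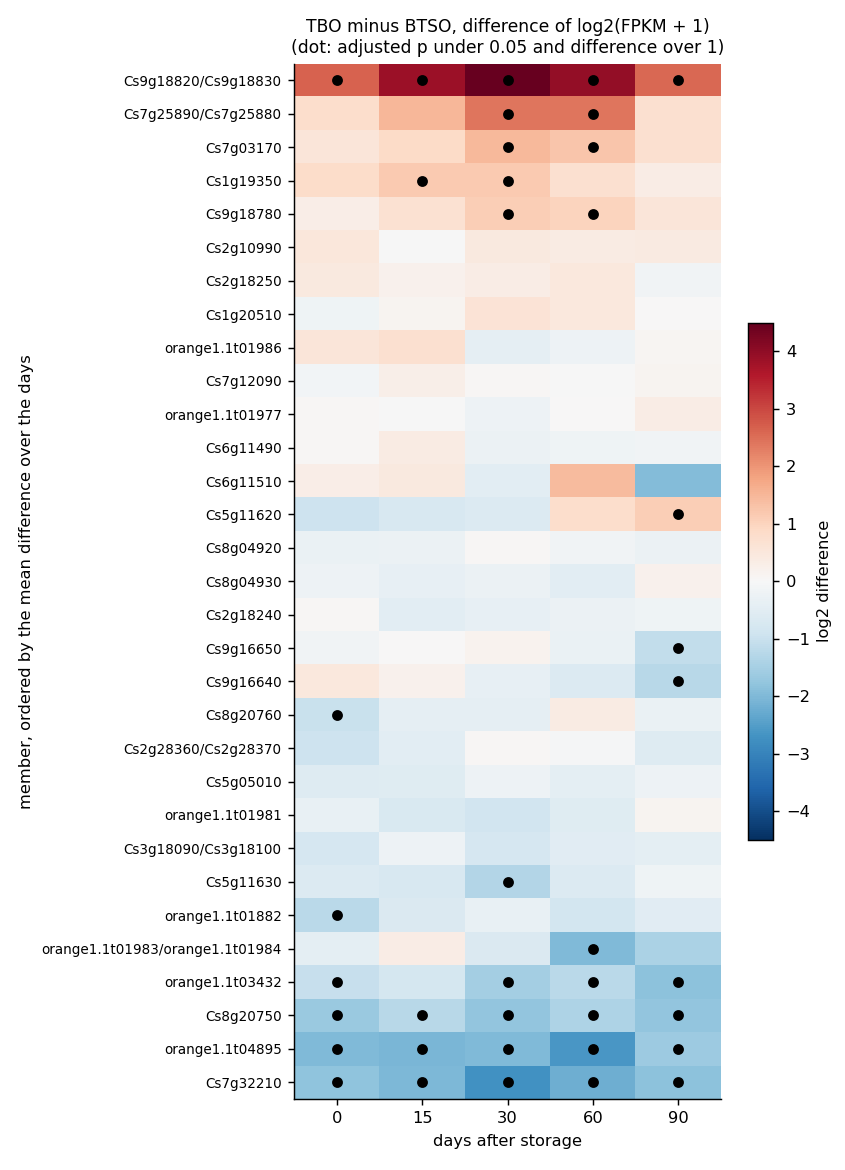
Difference of log2(FPKM + 1), TBO minus BTSO, for the 31 tested members (rows, ordered by the mean over the days) at each of 5 storage days (columns), red where TBO was higher and blue where BTSO was higher, with a dot where the adjusted p was under 0.05 and the difference over 1. Dots fill all 5 columns in 4 rows, 1 red at the top (Cs9g18820/Cs9g18830, 2.60 to 4.47) and 3 blue at the bottom.

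Of the 4 anthocyanidin 3-O-glucosyltransferases, the most abundant was not called between the varieties. Cs6g11490 had an FPKM in TBO of 36.4, 41.9 and 38.4 (0 DAS), 48.7, 43.2 and 41.0 (15 DAS), 76.2, 90.4 and 79.4 (30 DAS), 70.5, 70.1 and 64.9 (60 DAS), and 50.2, 49.7 and 57.1 (90 DAS). The values in BTSO were 35.3, 43.1 and 34.6 (0 DAS), 27.8, 38.8 and 37.4 (15 DAS), 113, 86.3 and 96.0 (30 DAS), 70.2, 109 and 61.6 (60 DAS), and 45.4, 63.7 and 70.6 (90 DAS). Both varieties were highest at 30 DAS, and their libraries overlapped on each day except 15 DAS, when TBO lay above. The log2 difference averaged -0.04 ± 0.08 (SE) over the days (adjusted p = 0.638), and on single days it lay between -0.25 and 0.36 with adjusted p from 0.0836 to 0.829. From 0 to 90 DAS the level went up by 0.42 ± 0.17 in TBO (adjusted p = 0.0414) and by 0.64 ± 0.17 in BTSO (adjusted p = 0.00348), both under the limit of 1. The change of the variety difference was -0.22 ± 0.24 (adjusted p = 0.617).

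Another of these genes was lower in TBO on every day. For orange1.1t04895, an anthocyanidin 3-O-glucosyltransferase 5-like gene, FPKM in TBO was 1.63, 1.096 and 1.58 (0 DAS), 2.74, 2.50 and 2.18 (15 DAS), 3.40, 2.67 and 2.89 (30 DAS), 3.64, 2.77 and 2.30 (60 DAS), and 3.78, 3.27 and 4.07 (90 DAS). BTSO libraries held 8.29, 8.94 and 8.43 (0 DAS), 19.0, 15.4 and 7.99 (15 DAS), 13.1, 17.6 and 13.3 (30 DAS), 15.4, 52.3 and 14.4 (60 DAS), and 7.70, 18.4 and 17.4 (90 DAS). No library of one variety reached the range of the other on any day, and 1 BTSO library at 60 DAS (replicate 2) stood well above its group. The log2 difference was -1.98 ± 0.34 at 0 DAS, -2.05 at 15, -1.97 at 30, -2.62 at 60 and -1.64 at 90 DAS, with adjusted p from 1.03e-06 to 0.000305. Without the high library the difference at 60 DAS was still called, as it was in every fit that left out 1 library.

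The remaining members of this class were not called on any day. Cs2g10990, a 2-like gene, lay between 3.32 and 9.69 FPKM in the 30 libraries, and its log2 difference averaged 0.34 ± 0.07 (adjusted p = 6.82e-05). Cs6g11510, a 6-like gene numbered close to Cs6g11490, had values that jumped between replicates. In BTSO it stood at 18.6, 1.93 and 19.7 (0 DAS), 16.5, 1.91 and 24.2 (15 DAS), and 2.70, 38.4 and 1.03 (60 DAS), against 27.6, 26.5 and 27.1 at 30 DAS. Among the TBO libraries 1 was similarly low, at 90 DAS, where the values were 1.16, 16.2 and 14.7. Its highest library exceeded its lowest by 37.4 times in BTSO at 60 DAS, and Cs6g11490 did not show these drops. Of the 31 tested members, 5 had a group in which the highest library exceeded the lowest by over 5 times.

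The largest log2 difference between the varieties among the tested members was that of the anthocyanidin 5,3-O-glucosyltransferase-like locus Cs9g18820/Cs9g18830. An enzyme of this name is known from rose, where it adds glucose to anthocyanidins at both positions. The table reports the neighbouring gene names under 1 assembled locus, so the values cannot be assigned to either. In TBO the locus had an FPKM of 6.88, 14.4 and 5.70 (0 DAS), 31.5, 21.4 and 19.3 (15 DAS), 61.3, 43.9 and 45.9 (30 DAS), 37.8, 37.4 and 43.0 (60 DAS), and 23.1, 19.9 and 19.8 (90 DAS). In BTSO it had 0.466, 0.601 and 0.429 (0 DAS), 0.763, 0.792 and 0.581 (15 DAS), 0.708, 1.53 and 1.77 (30 DAS), 0.967, 2.27 and 1.76 (60 DAS), and 2.06, 4.26 and 1.94 (90 DAS). The lowest TBO library (5.70) lay above the highest BTSO library (4.26) of all days. As a ratio of means TBO was 18.0 times BTSO at 0 DAS, 33.9 times at 15, 37.7 times at 30, 23.7 times at 60 and 7.61 times at 90 DAS. On the log2(FPKM + 1) scale the difference was 2.64 ± 0.26, 3.85, 4.47, 3.95 and 2.60, with adjusted p from 2.78e-12 to 3.23e-08. An exact permutation test of 3 libraries against 3 gave 0.1 on each day, the smallest value it can give.

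Over storage this locus rose in both varieties. From 0 to 90 DAS the log2 difference was 1.23 ± 0.26 in TBO (adjusted p = 0.000311) and 1.27 ± 0.26 in BTSO (adjusted p = 0.000294), and the change of the variety difference was -0.04 ± 0.36 (adjusted p = 0.965). By ratio of means the level at 90 DAS was 2.33 times that at 0 DAS in TBO and 5.52 times in BTSO, since the pseudocount of 1 shrinks changes at the low levels of BTSO. With a pseudocount of 0.1 the change of the variety difference was -0.85 (adjusted p = 0.283), by edgeR it was -1.25 (adjusted p = 0.0896), and DESeq2 called it (-1.23, adjusted p = 0.0447). By group means TBO was highest at 30 DAS and BTSO at 90 DAS. The rise in TBO was no longer called without TBO replicate 3 at 0 DAS, where the log2 difference was 0.99.

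A second gene of the same description was also higher in TBO, at a much lower level. Cs9g18780 (chromosome 9, 17906747 to 17908577, minus strand, in the coordinates of the table, whose genome build is not given in the sources used here) had 0.383, 0.549 and 0.344 FPKM at 0 DAS and 1.80, 1.41 and 1.65 at 30 DAS in TBO. The BTSO values were 0.167, 0.194 and 0.0815 and 0.189, 0.207 and 0.246 on these days. Its libraries were separated by variety, with TBO above, on each of the 5 days. It was tested only because 8 TBO libraries had an FPKM of 1 or more, which 0 BTSO libraries had, so its calls and its separation by variety are a description. The log2 difference was past the limit at 30 DAS (1.11 ± 0.11) and at 60 DAS (1.00 ± 0.11). At 60 DAS the value sat at the limit, and upper-quartile scaling, quantile normalization or leaving out TBO replicate 3 or BTSO replicate 1 brought it below, down to 0.87. Since the pseudocount of 1 shrinks differences at such levels, the ratio of means is the plainer measure, and it was 7.57 at 30 DAS and 7.62 at 60 DAS. The locus Cs9g18820/Cs9g18830, close in number and alike in description, was far more abundant in TBO. How reads shared by such genes were assigned is not given in the sources used here, so the values of Cs9g18780 are uncertain.

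**Figure D3:**
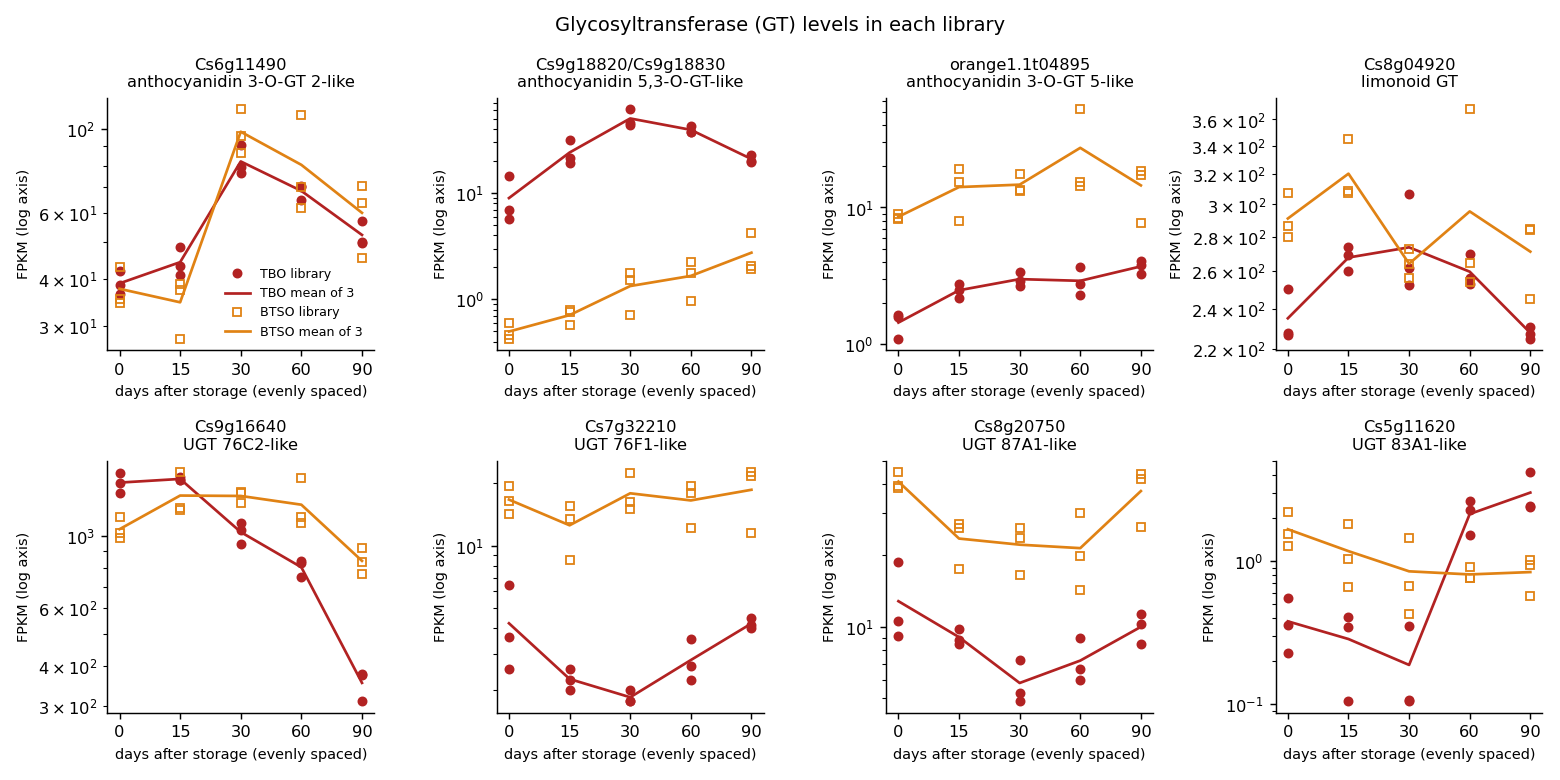
FPKM (logarithmic vertical axis, with its own range in each panel) of 8 members in every library against storage day (evenly spaced), with filled circles for TBO libraries, open squares for BTSO libraries and lines through the means of 3. The curves of Cs6g11490 run together and peak at 30 DAS in both varieties, those of Cs9g18820/Cs9g18830, orange1.1t04895, Cs7g32210 and Cs8g20750 stay apart, and those of Cs9g16640 and Cs5g11620 cross.

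The rhamnosyltransferases were both weakly expressed. orange1.1t01882 is described as a 1,6-rhamnosyltransferase, an enzyme that builds rutinosides such as hesperidin by adding rhamnose to the glucose of a flavonoid glucoside. It had 0.767, 2.02 and 1.24 FPKM in TBO and 4.47, 5.46 and 3.07 in BTSO at 0 DAS, and 0.6002, 0.629 and 0.740 and 0.703, 1.55 and 2.07 at 90 DAS. BTSO was higher at 0 DAS, with a log2 difference of -1.20 ± 0.26 (adjusted p = 0.00053), and fell over storage by 1.14 ± 0.26 (adjusted p = 0.000766). Without BTSO replicate 2 at 0 DAS or BTSO replicate 1 at 90 DAS the fall was no longer called (smallest size 0.90). In TBO the change was -0.47 ± 0.26 (adjusted p = 0.126), and the varieties' changes differed by 0.68 ± 0.36 (adjusted p = 0.242). Cs7g27070, a putative UDP-rhamnose:rhamnosyltransferase, did not reach the limit for testing and lay between 0.267 and 1.16 FPKM in TBO and between 0 and 0.762 in BTSO.

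Cs7g03170, a UGT 708A6-like gene of a family that attaches glucose to flavonoids through a carbon bond, was higher in TBO. Its FPKM in TBO was 9.19, 12.6 and 10.2 (0 DAS), 6.44, 8.21 and 7.93 (30 DAS), and 10.2, 10.0 and 11.3 (90 DAS). In BTSO the values were 6.33, 7.22 and 7.40 (0 DAS), 2.21, 1.78 and 2.19 (30 DAS), and 6.05, 6.21 and 5.87 (90 DAS). The level was lowest at 30 DAS in BTSO, and no library of the varieties overlapped on any day. The log2 difference passed the limit at 30 DAS (1.48 ± 0.16, adjusted p = 1.14e-07) and 60 DAS (1.26 ± 0.16, adjusted p = 1.11e-06), and lay between 0.54 and 0.88 on the other days.

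The limonoid glucosyltransferase kept to a narrow range of levels. Cs8g04920 had 227, 250.2 and 228 FPKM at 0 DAS and 231, 225 and 227 at 90 DAS in TBO, and 279.6, 307 and 287 and 245, 284 and 285 in BTSO. Over all days it stayed between 225 and 368. It was not called in any comparison, with log2 differences between varieties of -0.31 to 0.05 and changes over storage of -0.04 ± 0.11 in TBO (adjusted p = 0.745) and -0.10 ± 0.11 in BTSO (adjusted p = 0.432). Averaged over the days it was lower in TBO by the adjusted p alone (-0.19 ± 0.05, adjusted p = 0.000999). Its neighbour by number, Cs8g04930, is described as UGT 84B2-like, and a close relative in Arabidopsis puts glucose on the auxin indole-3-acetic acid. Cs8g04930 had 323, 328 and 339.7 and 465, 466 and 518 FPKM in TBO at 0 and 90 DAS, and 371, 399 and 383 and 486, 356 and 446 in BTSO. Neither its variety difference (-0.23 ± 0.05 on average) nor its changes over storage (0.55 ± 0.12 in TBO and 0.15 ± 0.12 in BTSO) reached the limit of 1.

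The most abundant member was higher in TBO at the start of storage and lower at its end. Cs9g16640 is described as UGT 76C2-like, and the Arabidopsis enzyme of that name attaches glucose to a nitrogen of cytokinins, which inactivates them. In TBO its FPKM was 1568, 1355 and 1459 (0 DAS), 1488, 1523 and 1486 (15 DAS), 1045, 947 and 1096 (30 DAS), 824, 836 and 747 (60 DAS), and 376, 375 and 311 (90 DAS). In BTSO it was 1020.0, 1141 and 989 (0 DAS), 1573, 1207 and 1218 (15 DAS), 1366, 1260.0 and 1361 (30 DAS), 1141, 1512 and 1094 (60 DAS), and 767, 919.7 and 831 (90 DAS). TBO was higher without overlap at 0 DAS, overlapped BTSO at 15 DAS and was lower without overlap from 30 DAS on. The log2 difference went from 0.48 ± 0.12 (adjusted p = 0.00305) through 0.18, -0.37 and -0.62 to -1.25 ± 0.12 at 90 DAS (adjusted p = 2.34e-08), and only the last was past the limit.

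Cs7g32210 and Cs8g20750 were lower in TBO on all 5 days. Cs7g32210, a UGT 76F1-like gene, had 2.54, 6.47 and 3.62 FPKM in TBO against 14.3, 19.3 and 16.5 in BTSO at 0 DAS, 1.77, 1.77 and 2.00 against 16.3, 22.4 and 15.1 at 30 DAS and 4.01, 4.44 and 4.14 against 11.5, 21.7 and 22.7 at 90 DAS. By means BTSO was 3.97 times TBO at 0 DAS, 9.71 times at 30 DAS and 4.44 times at 90 DAS, and the log2 difference averaged -2.12 ± 0.11 (adjusted p = 2.57e-14). Each of the 3 UGT 87A1-like genes was called lower in TBO on at least 1 day, although 1 of them was not lower on every day. In Arabidopsis a gene of this family influences flowering time. Cs8g20750 had 9.11, 18.8 and 10.5 FPKM in TBO and 39.2, 44.8 and 38.5 in BTSO at 0 DAS, and 10.3, 8.43 and 11.3 and 26.2, 43.8 and 41.8 at 90 DAS, with an average difference of -1.57 ± 0.11 (adjusted p = 8.91e-12). In orange1.1t03432 the average was -1.29 ± 0.11 (adjusted p = 3.52e-10), its libraries did not overlap on any day, and 15 DAS was the 1 day without a call. Cs8g20760, next in number to Cs8g20750 and far lower, was called at 0 DAS alone (-1.004 ± 0.191, adjusted p = 0.000166), and without TBO replicate 1 or 3 or BTSO replicate 2 of that day the value fell short of the limit (smallest size 0.75). At 60 DAS it lay above BTSO without overlap, with 1.34, 0.634 and 0.899 FPKM in TBO and 0.548, 0.571 and 0.417 in BTSO. It had an FPKM of 1 or more in 1 TBO library and 4 BTSO libraries, so it would not have been tested on its TBO libraries alone, and its call is a description. For orange1.1t03432 the call at 0 DAS (-1.03) was lost without TBO replicate 1 or BTSO replicate 2 of that day (smallest size 0.80).

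Calls on 1 or 2 days included 3 more members. Cs1g19350, a UGT 88B1-like gene, had 6.93, 6.48 and 5.81 FPKM in TBO against 2.71, 2.02 and 2.19 in BTSO at 15 DAS and was higher in TBO at 15 and 30 DAS (1.17 ± 0.14 and 1.20 ± 0.14, adjusted p = 6.23e-07 and 3.99e-07). At 30 DAS Cs5g11630, a UGT 83A1-like gene, was lower in TBO by -1.30 ± 0.24 (adjusted p = 7.73e-05), with 1.33, 2.53 and 1.15 against 4.205, 7.03 and 5.38 FPKM. The locus orange1.1t01983/orange1.1t01984, which joins a UGT 73C3-like gene to one described as a hypothetical protein, was lower in TBO at 60 DAS, with 27.6, 18.9 and 14.3 against 82.1, 82.1 and 79.1 FPKM and a difference of -1.99 ± 0.61 (adjusted p = 0.00853). Its spread within groups was wide, as in BTSO at 30 DAS (9.19, 62.3 and 77.3).

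A further locus was called higher in TBO but cannot be read as a glycosyltransferase alone. Cs7g25890/Cs7g25880 joins a UGT 89B2-like gene to a gene described as a pre-mRNA-splicing factor, and its values cannot be split between them. The log2 difference was 2.40 ± 0.79 at 30 DAS and 2.41 ± 0.79 at 60 DAS (adjusted p = 0.0133 and 0.0135), and 1.56 ± 0.35 on the average over the days (adjusted p = 0.000328). In 5 of the 10 groups its highest library exceeded its lowest by over 5 times, as in BTSO at 0 DAS (12.6, 0.882 and 12.7) or 60 DAS (2.90, 2.09 and 19.8). The call at 30 DAS was lost without BTSO replicate 3 of that day (adjusted p = 0.0665), and the call at 60 DAS without BTSO replicate 1 or 2 of that day (adjusted p up to 0.0815) or with edgeR or DESeq2 on the estimated counts (up to 0.0799).

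Over the 90 days of storage, some members changed by more than the limit in each variety, while most did not. In TBO 4 members rose and 2 fell (6 of 31, 19.4%), against 11.0% of all genes tested (7.24% up and 3.78% down). In BTSO 4 rose and 1 fell (5 of 31, 16.1%), against 7.29% of all genes (4.31% up and 2.98% down). The median log2 change of the tested members was 0.08 in TBO and 0.05 in BTSO, beside 0.16 and 0.13 over all genes tested. Quantile normalization moved the median of all genes by -0.17 in TBO and -0.12 in BTSO, and with it 3 members rose and 3 fell in TBO and 2 rose and 2 fell in BTSO. Of all genes tested, 855 rose and 871 fell in TBO with it (10.4% called), and 565 rose and 629 fell in BTSO (7.20%). The comparisons of 90 with 0 DAS share these libraries with the variety comparisons of the same days.

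Besides Cs9g18820/Cs9g18830, Cs2g18250 rose in both varieties. This gene, a UGT 74G1 gene named after the Stevia enzyme that glucosylates steviol, had 11.97, 17.5 and 21.0 FPKM at 0 DAS and 41.0, 41.8 and 43.3 at 90 DAS in TBO. In BTSO it had 12.5, 12.6 and 10.6 and 97.1, 33.1 and 33.0, and no library of 0 DAS overlapped those of 90 DAS in either variety. The log2 change was 1.30 ± 0.33 in TBO (adjusted p = 0.00182) and 1.91 ± 0.33 in BTSO (adjusted p = 5.14e-05), and the difference between these changes was not past the threshold (-0.61 ± 0.47, adjusted p = 0.445). Without BTSO replicate 1 at 90 DAS, whose value was the highest of all, the change in BTSO was 1.41 and still called. Cs7g25890/Cs7g25880 also counted as higher in TBO (1.92 ± 0.79, adjusted p = 0.0424) and BTSO (2.00 ± 0.79, adjusted p = 0.0386). Both calls were lost without the low library of 0 DAS (TBO replicate 1, where the value became 0.94, and BTSO replicate 2, 1.05) and without any 1 of the 3 libraries of 90 DAS of that variety, where the adjusted p rose to 0.321 in TBO and 0.29 in BTSO at most. They were also lost with either other scaling, without the filter, and with edgeR and DESeq2. The rise of orange1.1t01983/orange1.1t01984 in BTSO (1.46 ± 0.61, adjusted p = 0.0497) sat at the threshold and was lost in 20 of the 30 fits that left out 1 library, with adjusted p up to 0.158. It was also lost with a pseudocount of 0.1, either other filter, either other scaling and edgeR.

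Of the 5 UGT 76C2-like genes, the 2 that were tested fell in TBO, and the other 3 stayed below 0.1 FPKM in every library. Cs9g16640 fell by 2.05 ± 0.12 on the log2 scale (adjusted p = 1.004e-11), and its mean FPKM at 0 DAS was 4.13 times that at 90 DAS. In BTSO the change was -0.32 ± 0.12 (adjusted p = 0.0342), with a ratio of 1.25. Cs9g16650, its neighbour by number and description (chromosome 9, 16128303 to 16130158, plus strand), fell from 1.53, 2.53 and 1.66 to 0.466, 0.294 and 0.374 FPKM in TBO and had 2.20, 2.32 and 2.22 and 1.64, 2.19 and 2.08 in BTSO. Its log2 change was -1.06 ± 0.12 in TBO (adjusted p = 1.37e-07) and -0.13 ± 0.12 in BTSO (adjusted p = 0.376). Without TBO replicate 2 at 0 DAS the change in TBO was -0.91, short of the limit. Cs9g16640 was far more abundant, and how reads shared by such near copies were assigned is not given in the sources used here, so the values of the weaker gene are uncertain.

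In the other direction, Cs5g11620 (chromosome 5, 8723652 to 8725575, minus strand), a UGT 83A1-like gene, rose in TBO. Its TBO libraries held an FPKM of 0.360, 0.550 and 0.230 (0 DAS), 0.105, 0.352 and 0.108 (30 DAS), 2.27, 1.52 and 2.62 (60 DAS), and 2.41, 2.44 and 4.19 (90 DAS). The BTSO values were 1.28, 2.19 and 1.54 (0 DAS), 0.668, 1.45 and 0.429 (30 DAS), 0.759, 0.759 and 0.907 (60 DAS), and 0.571, 1.01 and 0.936 (90 DAS). TBO lay below BTSO without overlap until 30 DAS and above it without overlap at 60 and 90 DAS. The log2 change was 1.52 ± 0.21 in TBO (adjusted p = 1.79e-06), while that in BTSO was -0.53 ± 0.21 (adjusted p = 0.0368). At 90 DAS the variety difference was 1.11 ± 0.21 (adjusted p = 0.000105), and it fell just short of the limit with upper-quartile scaling or without TBO replicate 3 or BTSO replicate 1 of that day (smallest value 0.91).

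The change of the variety difference between 0 and 90 DAS passed the threshold, an adjusted p under 0.05 with no limit on size, for 4 of the 31 members, a share of 12.9% beside 12.4% of all genes tested (7.04% upward and 5.39% downward). These were Cs5g11620 (2.05 ± 0.29, adjusted p = 6.17e-05) and orange1.1t01981 (0.48 ± 0.15, adjusted p = 0.0327) upward, and Cs9g16640 (-1.72 ± 0.18, adjusted p = 1.38e-06) and Cs9g16650 (-0.93 ± 0.17, adjusted p = 0.000699) downward. orange1.1t01981 is a UGT 73C6-like gene, and enzymes of its group in Arabidopsis act on brassinosteroids and flavonols. It had 8.19, 9.05 and 9.33 and 13.4, 12.3 and 13.6 FPKM at 0 and 90 DAS in TBO, and 12.8, 11.5 and 10.2 and 13.4, 10.9 and 11.2 in BTSO. In between it was highest in BTSO at 30 DAS (19.5, 20.1 and 21.7), where TBO had 11.5, 10.4 and 10.9. Its change lost the threshold in 7 of the 30 fits that left out 1 library, with adjusted p up to 0.0977, and each of these 7 was a library of 0 or 90 DAS (TBO replicate 1 at 0 DAS, TBO replicates 1 and 3 at 90 DAS, BTSO replicates 1 and 2 at 0 DAS and BTSO replicates 2 and 3 at 90 DAS).

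**Figure D4:**
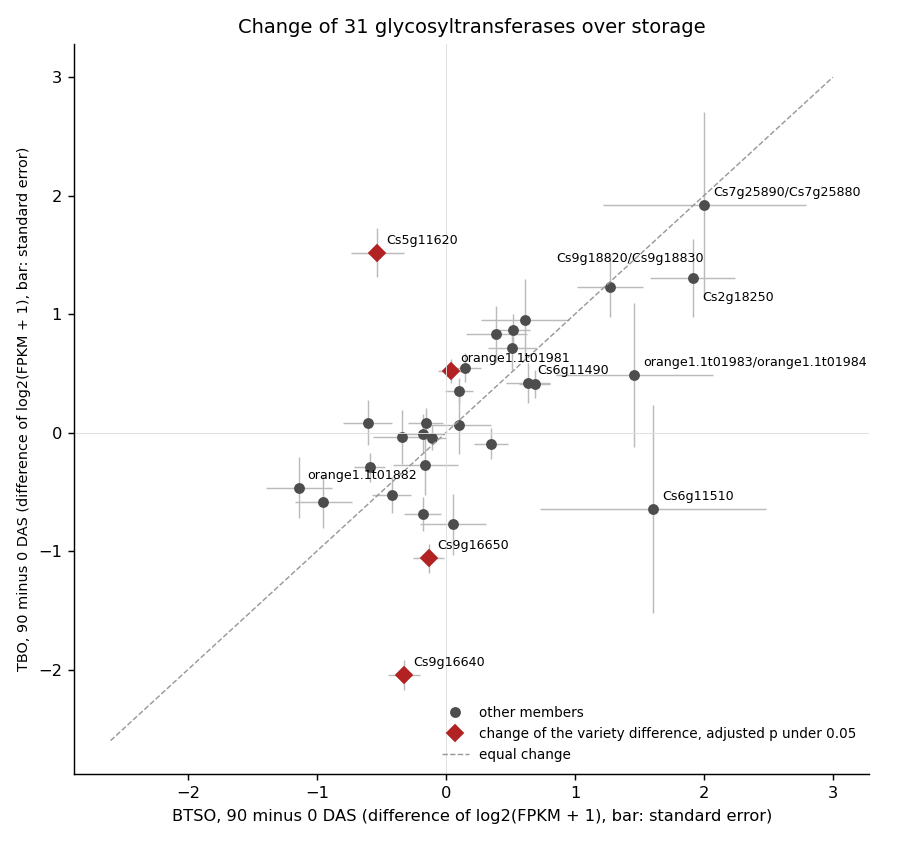
Change from 0 to 90 DAS of the 31 tested members as a difference of log2(FPKM + 1), in BTSO (horizontal axis) and TBO (vertical axis), with standard errors as bars and the dashed line marking an equal change. Red diamonds are the 4 members whose change differed between the varieties, of which Cs9g16640 lies at -2.05 in TBO and -0.32 in BTSO, and Cs5g11620 at 1.52 and -0.53.

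Many of the members lie in runs of close gene numbers. Of their 63 reference gene names, 41 fell into 15 runs, which held 36 members. Neighbouring numbers in a run differed by at most 100 for genes placed on chromosomes and by at most 10 for unplaced ones. Some runs held only the names of 1 joined locus, such as that of Cs7g25890/Cs7g25880, which includes the splicing factor. In some runs the members differed widely in level, while Cs8g04930 and Cs8g04920 were both abundant (means of 402 and 271 FPKM). In the run of Cs9g16640 and Cs9g16650 the means were 1095 and 1.72 FPKM, and in that of Cs8g20750 and Cs8g20760 they were 19.0 and 0.746. Of the 83A1-like genes Cs5g11610, Cs5g11620, Cs5g11630 and Cs5g11650 the means were 0.365, 1.14, 3.83 and 0.0343. As 29 members were given without coordinates, distances between genes were not computed.

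Among the 27 members below the limit for testing, some were listed at 0 in BTSO. Others were listed at 0 in all 15 TBO libraries and in 14 of 15 BTSO libraries. The genes described here were picked out after their values were seen. orange1.1t04988, a flavonoid 3-O-glucosyltransferase 7-like gene, was listed at 0 in 15 of 15 BTSO libraries and reached 0.774 FPKM in TBO, where 1 library was at 0 and the median was 0.509. orange1.1t03138, of the same description, was at 0 in 14 of 15 BTSO libraries and lay between 0.0135 and 0.521 in TBO. At this depth such low values do not show absence, and no fold was formed against a group listed at 0.

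Enzymes that supply the acceptors and the sugars were read in the same fits. Of 31 genes named as flavonoid enzymes (chalcone synthase and isomerase, flavanone 3-hydroxylase, flavonoid hydroxylases, anthocyanidin synthase and anthocyanidin or leucoanthocyanidin reductase), 19 were tested. Averaged over the days 8 were higher and 0 lower in TBO (4.18% and 3.86% of all genes tested), with a median log2 difference of 0.70 beside 0.08 over all genes. The number lower was also 0 at an unadjusted p under 0.05 and was 1 by edgeR and by DESeq2. From 0 to 90 DAS 10 of them rose and 1 fell in TBO (7.24% and 3.78% of all genes), against 2 and 3 in BTSO (4.31% and 2.98%). By edgeR 10 rose and 1 fell in TBO, and 4 rose and 4 fell in BTSO (17.2% and 12.8% of all genes called). By DESeq2 the numbers were 8 and 2 in TBO, and 3 and 4 in BTSO (17.4% and 13.4%). Among the most abundant of each enzyme, the average difference was 8.04 ± 0.15 for Cs9g11190 (chalcone synthase, which begins the pathway), 5.30 ± 0.09 for Cs1g25280 (flavanone 3-hydroxylase), 5.87 ± 0.14 for Cs5g09970 (anthocyanidin synthase, which makes the acceptor of the 3-O-glucosyltransferases) and 1.45 ± 0.09 for Cs7g28130 (chalcone isomerase). Cs2g07290 (anthocyanidin or leucoanthocyanidin reductase) differed by 1.76 ± 0.09, and orange1.1t04984 (a flavonoid hydroxylase) by 0.70 ± 0.07, under the limit. Cs2g07290 averaged only 1.60 FPKM over the 30 libraries, and its change over storage in BTSO was 0. Whether it reached the limit for testing in both varieties was not examined, so its calls, which are in the counts above, are a description. Cs6g11490, at -0.04, lay below all of these average differences, and Cs9g18820/Cs9g18830, at 3.50 ± 0.12, lay within their range. The other anthocyanidin 3-O-glucosyltransferases also lay below them, at -2.05 (orange1.1t04895), -0.05 (Cs6g11510) and 0.34 (Cs2g10990). Whether any of these genes acts in the pigment pathway was not tested.

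All 7 UDP-sugar supply genes were tested. Of these, 1 was higher and 0 lower in TBO on the average over the days (4.18% and 3.86% of all genes tested). The median was -0.11, beside 0.08 over all genes. The gene called was the less abundant of the 2 sucrose synthase genes. The number lower was also 0 by unadjusted p under 0.05, by edgeR and by DESeq2. In TBO 1 rose over storage (7.24% of all genes tested rose). In BTSO 0 of the 7 were called by limma (7.29% of all genes) and 0 at an unadjusted p under 0.05. There 1, lower, was called by edgeR and by DESeq2 (12.8% and 13.4% of all genes called). The most abundant was Cs5g33470, a sucrose synthase that yields UDP-glucose from sucrose, with a mean of 702 FPKM and a difference of 0.41 ± 0.08 (adjusted p = 7.06e-05). Cs6g22050 (UDP-glucose 6-dehydrogenase) differed by -0.25 ± 0.05, Cs5g10530 (UDP-glucose epimerase) by -0.11 ± 0.06 and Cs1g18850 (UDP-glucose pyrophosphorylase) by -0.43 ± 0.06. The words used for UDP-rhamnose synthase, UDP-glucuronate decarboxylase and dihydroflavonol reductase matched no gene, so these steps were not analysed here.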

How the data were processed

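Paired-end poly(A) RNA sequencing of 30 juice sac libraries gave the deposited table of 24179 genes. The authors deposited FPKM values and, beside them, estimated counts per gene. Per the labels, the processing notes name Bowtie 0.12.2, HISAT2 2.0 and StringTie 1.3.0. The build these notes name is a mouse assembly, which cannot be that of sweet orange coordinates, and the sweet orange build is not given in the sources used here. The estimated counts were whole numbers that scale with FPKM within a gene, so they are no independent measure, and intervals from counting were not formed. Between 0.936% and 3.45% of them fell on 636 rows without a reference gene name.

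Members were found by description in a text search, and the members and gene lists were chosen with earlier results of these data known. The main test was limma 3.58.1 (R 4.3.3, empirical Bayes with a trend) on log2(FPKM + 1), with 1 mean per group over all 30 libraries and the 16578 genes that reached an FPKM of 1 in 3 or more libraries. P-values were adjusted over all these genes by the Benjamini-Hochberg method. A gene was called at an adjusted p under 0.05 and a log2 difference over 1, and the change of the variety difference at the adjusted p alone. The pseudocount of 1 understates differences of low genes. Replicates are biological per the labels. An exact permutation test of 3 against 3 libraries cannot go below 0.1. The fit was also run on simulated normal values, with changes set only in genes above a low level. That run does not show how the fit performs for members of low level.

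Alternatives were a pseudocount of 0.1, other filters, upper-quartile scaling, quantile normalization, a replicate block, fits within a day, leaving out each library, and edgeR 4.0.16 and DESeq2 1.42.0 on the estimated counts. Genes were named by rule: Cs6g11490, the most abundant member of each class, the 5 most abundant members, those called the same way on all 5 days, up to 5 called per direction in the average and storage comparisons and up to 5 for the change of the variety difference, and the most abundant gene of each enzyme in the other lists. All further genes (Cs1g19350, Cs2g10990, Cs5g11610, Cs5g11630, Cs5g11650, Cs6g11510, Cs7g03170, Cs7g27070, Cs8g20760, Cs9g18780, orange1.1t03138 and orange1.1t04988) were chosen after their values were seen. Flavonol synthase genes were counted with flavanone 3-hydroxylase, whose search words came first.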

Additional observations from a re-analysis of the deposited data

Results flagged for a closer look

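For 4 members the change from 0 to 90 DAS differed between TBO and BTSO by the test of that difference in limma (12.9% of the 31 tested, beside 12.4% of all genes tested). The difference of log2 changes was 2.05 for Cs5g11620, whose libraries lay below those of BTSO at 0 DAS and above them at 90 DAS. It was -1.72 for Cs9g16640 and -0.93 for Cs9g16650, both UGT 76C2-like. It was 0.48 for orange1.1t01981, which was no longer past the threshold in 7 of the 30 fits that left out 1 library. The 3 libraries of a group were too few to look for single outlying samples.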

How the results depend on the processing

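Without the limit on the size of the difference, the number of members called was 20 at 0 DAS, 17 at 15, 18 at 30, 20 at 60 and 13 at 90 DAS, 25 on the average over the days, 20 for 90 against 0 DAS in TBO and 16 in BTSO, where 47.1% to 77.7% of all genes tested were called. A pseudocount of 0.1 gave 10 at 15 DAS and 10 on the average (15.6% and 14.9% of all genes). On the estimated counts edgeR called 11 at 0 DAS, 11 at 15 DAS, 12 on the average and 10 in TBO over storage (14.8%, 15.2%, 15.1% and 17.2% of all genes), and DESeq2 11, 11, 12 and 10 in these comparisons and 8 in BTSO over storage (15.2%, 15.6%, 15.4%, 17.4% and 13.4%). Without the filter 3 were called in BTSO over storage (4.93%), and by unadjusted p 9 for the change of the variety difference (26.0%). Leaving out 1 library gave 5 to 9 members at 0 DAS, 5 to 6 at 15, 9 to 11 at 30, 7 to 10 at 60, 8 to 10 at 90 DAS, 6 to 7 on the average, 5 to 7 in TBO over storage, 2 to 5 in BTSO over storage and 3 to 5 for the change. In BTSO the count was 2 without replicate 2 at 0 DAS and 3 without replicate 1 or replicate 3 at 90 DAS. The named members were also followed over the alternatives in the average, storage and change comparisons that named them, without the single days. Of these values 1013 kept their direction and side of the threshold, 56 lost the threshold, 7 gained it and 0 reversed. Most belonged to comparisons already called in the main fit, which could not gain the threshold. The number that gained is therefore no measure for all members, whose counts are given above. Why these counts moved was not tested.

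Replicate numbers did not pair the samples: same-numbered TBO and BTSO libraries correlated in their deviations from the group means by -0.0743 to 0.175, over 0.1 in 2 of 15 pairs. With a replicate block the counts were 7, 5, 10, 9 and 9 on the 5 days, 6 on the average, 6 and 5 over storage in TBO and BTSO and 4 for the change. The shares of all genes tested were 7.82%, 8.86%, 10.7%, 11.4% and 10.8% on the days and 8.03% on the average. They were 11.0% and 7.27% over storage in TBO and BTSO and 12.7% for the change. The 3 libraries per group and the low level of 27 members limit what could be tested.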

Other observations

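Over the whole table, 14 genes (0.0579%) were listed at 0 in all BTSO libraries and above 0 in all TBO libraries, and 7 (0.0290%) showed the reverse. Neither orange1.1t04988 nor orange1.1t03138 met these patterns. Upper-quartile scaling changed the split of all genes called at 15 DAS from 855 higher and 616 lower in TBO to 541 higher and 875 lower, while the members stayed at 2 higher and 3 lower.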
